A study of Populus tremula x Populus tremuloides with 6 samples.

Results

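A set of 142 gene loci was close to silent in wild-type poplar leaves and was transcribed in each of 3 leaf samples that overexpress MYB117. They are 142 of the 34267 loci with a gene identifier that starts with Potra, among 37662 loci in all. A locus was taken when its mean over the 3 wild-type libraries was below 0.1 CPM (counts-per-million over the reads assigned to loci) and its level was at least 0.5 CPM in each of the 3 MYB117 libraries. The levels of these loci in the 2 groups therefore describe the choice and were not tested by it. The deposited files pair no identifier with a gene or product name, so the loci are described by level, spread and position, and 2 of them are printed by identifier.

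The plants were hybrid poplars, Populus tremula x Populus tremuloides, of a single INRA clone. The wild-type group held 3 plants, and the MYB117 group held 3 transgenic plants carrying MYB117 in the binary vector pMDC32, brought in with Agrobacterium tumefaciens. All plants grew for 1 month under mist and for 2 months in a greenhouse before leaves 7 to 10, by the leaf plastochron index, were taken for messenger RNA sequencing. Whether the 3 transgenic plants stem from separate transformation events, or the wild-type plants from separate cultures, is not stated in the sources used here, so p-values measure the spread between these plants only.

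MYB transcription factors of plants bind DNA through repeated helical domains and switch target genes on or off. Many members of the R2R3 class act on the phenylpropanoid pathway, which makes lignin, flavonols, anthocyanins and condensed tannins. The vector pMDC32 is a general overexpression vector whose promoter, from cauliflower mosaic virus, is active in most plant cell types, so a factor can be present in cells where its own gene is not normally on. Leaf tissue was sequenced in bulk, where a larger number of expressing cells and more RNA per cell cannot be told apart.

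Libraries held 28960403 to 38013856 reads in loci in wild type and 35164729 to 49442174 in the MYB117 group. At these depths 0.1 CPM stands for 2.90 to 3.80 reads in a wild-type library, and 0.5 CPM for 17.6 to 24.7 reads in a MYB117 library. Reads that did not align were 6.35% to 6.69% of all reads in wild type and 7.27% to 8.09% in the MYB117 libraries, without overlap, and their part in the results below was not tested. Reads that overlapped more than 1 locus, 10.1% to 12.5% of a library, were given to no locus, so values of overlapping loci are uncertain. Reads of low alignment quality, 5.74% to 6.17% of a library, were also given to no locus. Values of near-identical copies are uncertain as well. The level of MYB117 itself and markers of leaf cell types were not analysed here.

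Of the loci with a Potra identifier, 8938 were below 0.1 CPM in wild type, and 5034 of these had 0 reads in the MYB117 libraries too. The limit of 0.5 CPM was reached in 1 MYB117 library by 80 of the 8938 loci, in 2 libraries by 69, and in all 3 by the 142, or 1.59%. Of the loci on in 1 library only, 31 were on in replicate 1, 18 in replicate 2 and 31 in replicate 3. Of the 69 loci on in 2 libraries, 34 fell short in replicate 1, 24 in replicate 2 and 11 in replicate 3. The same limits with the groups exchanged, silent in MYB117 and on in wild type, took 14 of 8881 silent loci, or 0.158%, at wild-type means of 0.616 to 3.86 CPM. That number was 31 without wild-type replicate 1 and 37 without both libraries numbered 1, and the number of loci silent in wild type and on in MYB117 was 138 and 166 in the same settings.

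The limits cut through a continuous range of levels. Among loci at 0.5 CPM or more in each MYB117 library, the highest wild-type mean inside the set was just under 0.1 CPM and the lowest outside was 0.101 CPM. Among loci below 0.1 CPM in wild type, the lowest MYB117 library was at 0.506 CPM or more inside the set and at 0.495 CPM or less outside it. Close to the edges, 21 of the 142 loci had a wild-type mean of at least 0.08 CPM, and 132 further loci passed the MYB117 limit with a wild-type mean of 0.1 to 0.2 CPM.

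**Figure D1:**
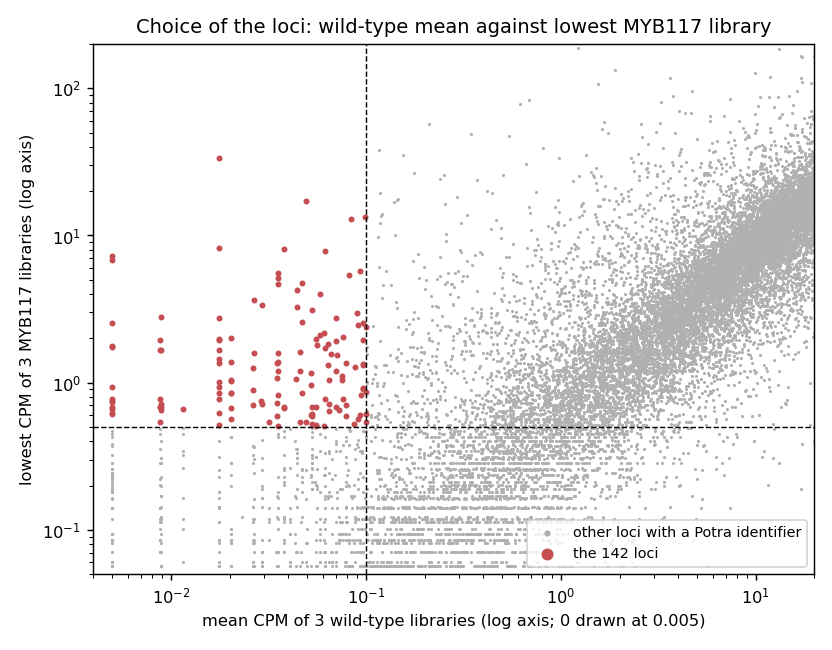
Each point is a locus with a Potra identifier, placed by its mean CPM in the 3 wild-type libraries and its lowest CPM among the 3 MYB117 libraries, both on log axes; loci with a wild-type mean below 20 CPM and a lowest MYB117 library above 0.05 CPM are drawn. Dashed lines are the limits of 0.1 and 0.5 CPM, and the 142 loci fill the upper left field without a gap to their neighbours outside it.

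In wild type the 142 loci were rarely at a strict zero. Reads in wild type were 0 at 13 loci, 1 to 3 in all at 43 loci and 4 to 11 at the other 86, summed over 3 libraries. Of the loci, 33 had reads in 1 wild-type library, 66 in 2 and 30 in all 3. Replicate 2 held a read at 109 of the loci, replicate 3 at 84 and replicate 1, the shallowest library, at 62. Summed over the loci, wild-type levels were 4.35, 8.40 and 6.05 CPM in replicates 1, 2 and 3. At 9 loci all wild-type reads, at least 4 and at most 8, came from a single library, 3 loci for each of the 3 plants. A count of 0 in a wild-type library allows up to 0.0789 to 0.104 CPM, which covers counting error only.

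In the MYB117 plants most of the loci were weakly transcribed. Their means ran from 0.590 to 41.9 CPM with a median of 1.53 CPM: 39 loci lay below 1 CPM, 47 between 1 and 2, 41 between 2 and 5, 10 between 5 and 10 and 5 above 10. Summed over the loci, the levels were 429 CPM in replicate 1, 420 in replicate 2 and 429 in replicate 3, or 0.0426% ± 0.00054 (SD, n = 3) of the reads in loci. The sums of the 3 transgenic plants lay close together, although single loci differed between them. This closeness depends on the locus at the second rank, with 71.2, 27.4 and 13.3 CPM in replicates 1, 2 and 3. Without that locus the unscaled sum rises from replicate 1 to replicate 3. The closeness also depends on leaving out TMM scaling, which adjusts for library composition. Its factors were 0.961, 1.06 and 1.06 in MYB117 replicates 1, 2 and 3. The lower factor of replicate 1 would raise its sum above those of replicates 2 and 3, and scaled sums were not computed. The most abundant locus made up 9.84% of the summed level, the first 5 made up 30.3% and the first 10 made up 41.0%.

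**Figure D2:**
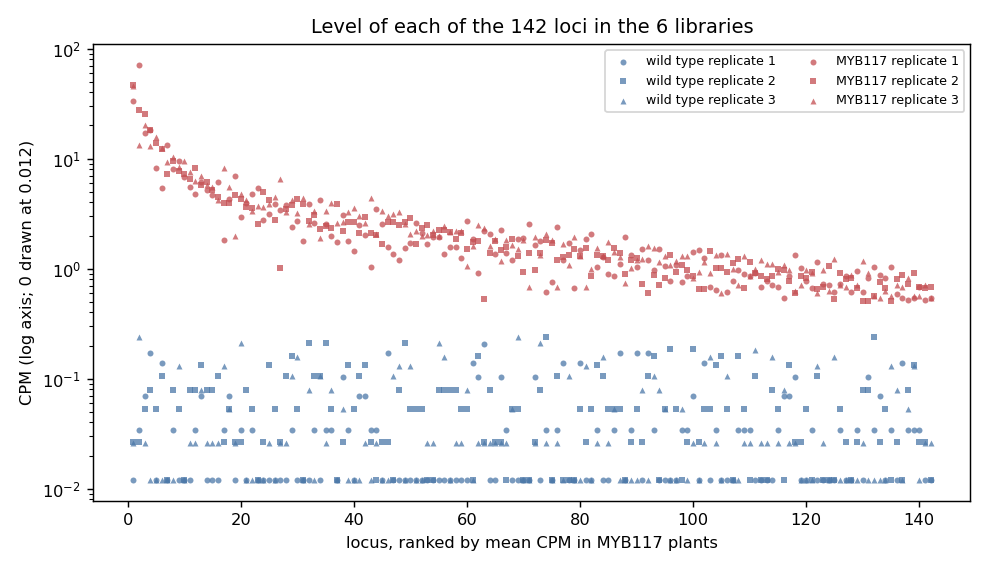
CPM of each of the 142 loci in the 3 wild-type libraries (blue) and the 3 MYB117 libraries (red), on a log axis, with loci ranked by their mean in the MYB117 plants and the replicate shown by the marker. A gap separates the groups by construction, and the red points fall from 41.9 CPM on average at the first rank to 0.590 CPM at the last, with the largest coefficient of variation between plants at the second rank.

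The most abundant locus, Potra007210g25915, had 0, 1 and 1 reads in wild-type replicates 1, 2 and 3, or 0, 0.0266 and 0.0263 CPM. It had 1418, 2315 and 1598 reads in MYB117 replicates 1, 2 and 3, or 33.4, 46.8 and 45.4 CPM. The 3 transgenic plants thus lay within 1.40-fold of each other. The mean of 41.9 ± 7.36 CPM was 2377 times that of wild type (0.0176 ± 0.0153 CPM, SD, n = 3 each), a ratio that rests on 2 wild-type reads.

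The locus at the second rank varied most between the transgenic plants. It had 71.2, 27.4 and 13.3 CPM in MYB117 replicates 1, 2 and 3, against 0.0345, 0.0266 and 0.237 CPM in the wild-type replicates. Replicate 1 was 5.38-fold above replicate 3, and its coefficient of variation of 81.0% was the largest of the 142, where read counting alone would give 2.50%. The locus at the third rank was steadier, at 17.2, 25.2 and 20.2 CPM. The loci at the fourth and the fifth rank had 18.1, 18.2 and 13.0 CPM, and 8.16, 13.9 and 15.8 CPM. Replicate 1 was thus highest at the second rank and lowest at the first, the third and the fifth.

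Potra002756g19911 was the most abundant of the 13 loci without a read in wild type. It had 559, 356 and 325 reads in MYB117 replicates 1, 2 and 3, or 13.2, 7.20 and 9.24 CPM, with replicate 1 the highest. Against a floor of 3 reads in each wild-type library, 0.0874 CPM on average, its mean was at least 113-fold higher. The other 12 loci of this kind had means of 0.775 to 7.85 CPM, and the median of all 13 was 1.54 CPM, close to the 1.53 CPM of the whole set. Loci without wild-type reads thus spanned much of the range of levels found in the set.

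Over the 129 loci with wild-type reads, the MYB117 mean was 6.76 to 2377 times the wild-type mean, with a median of 39.9. The 13 loci without wild-type reads were at least 8.86-fold to at least 113-fold higher. With those loci at their bound, the median of all 142 was 38.1-fold, 115 loci were at 16-fold or more and 49 at 64-fold or more. The bounds take 3 reads in each wild-type library, while a measured ratio can rest on 1 read, so these numbers mix unlike measures. These ratios follow from the limits of the choice and are given as a description.

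All 142 loci passed the count filter, as the limit on the MYB117 libraries leads them to do. In the fit over all loci, 140 of the 142 were called higher in MYB117, where the limit is an adjusted p of 0.05 (edgeR's quasi-likelihood test, Benjamini-Hochberg over 26854 loci). Among all tested loci 9.94% were called higher, and among those with a Potra identifier 9.27%. The choice used the same contrast, so nothing is read from this share. The fitted log2 fold changes ran from 2.61 to 11.56 with a median of 5.30, against a median of -0.06 over all tested loci.

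Both loci without a call were weak and uneven. The first had 0, 0 and 0.158 CPM in the wild-type replicates and 0.613, 0.526 and 1.22 CPM in the MYB117 replicates, with a log2 fold change of 3.65 (edgeR, SE 1.03, adjusted p = 0.055). The second had 0.0345, 0.239 and 0 CPM and then 1.04, 0.566 and 0.569 CPM, with a log2 fold change of 2.88 (edgeR, SE 0.94, adjusted p = 0.081). At each of them 1 transgenic plant stood well above the other 2.

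The limits were also applied with 1 library left out, and the level in that library was then read. When a MYB117 library is left out, the loci that pass in it are the 142 by definition. Only the number of loci taken can vary. With MYB117 replicate 3 left out, the limits took 153 loci, and 142 of these (92.8%) were at 0.5 CPM or more in the library left out. With replicate 2 left out 142 of 166 (85.5%) were, and with replicate 1 left out 142 of 176 (80.7%). Among all loci with a Potra identifier, 65.3% to 66.5% were at that level in the same libraries. Those loci were not chosen by level in the other libraries, so these shares are not a comparison of like with like. The median level in the library left out was 1.18, 1.23 and 1.51 CPM for replicates 1, 2 and 3, against 1.21, 1.33 and 1.40 CPM in the libraries used. In the left-out library 1, 2 and 1 of these loci were not above the highest wild-type library.

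On the wild-type side, smaller shares stayed within the limit in the library left out. With wild-type replicate 1 left out the limits took 138 loci, of which 100 (72.5%) were below 0.1 CPM in it. For replicate 3 the numbers were 100 of 147 (68.0%), and for replicate 2 they were 105 of 184 (57.1%). Among all loci with a Potra identifier, 25.3% to 27.3% were below that limit in the same libraries. That share too is over loci not chosen by level in the other libraries. In wild-type replicate 2 the highest of the 184 loci reached 1.25 CPM and 6 reached 0.5 CPM, in replicate 3 the highest of 147 reached 0.973 CPM and 3 reached 0.5 CPM, and in replicate 1 the highest of 138 stayed at 0.483 CPM. Replicates 2 and 3 each had 1 locus at or above the lowest MYB117 library. Replicate 2 was also the wild-type library with the highest summed level of the 142 loci.

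**Figure D3:**
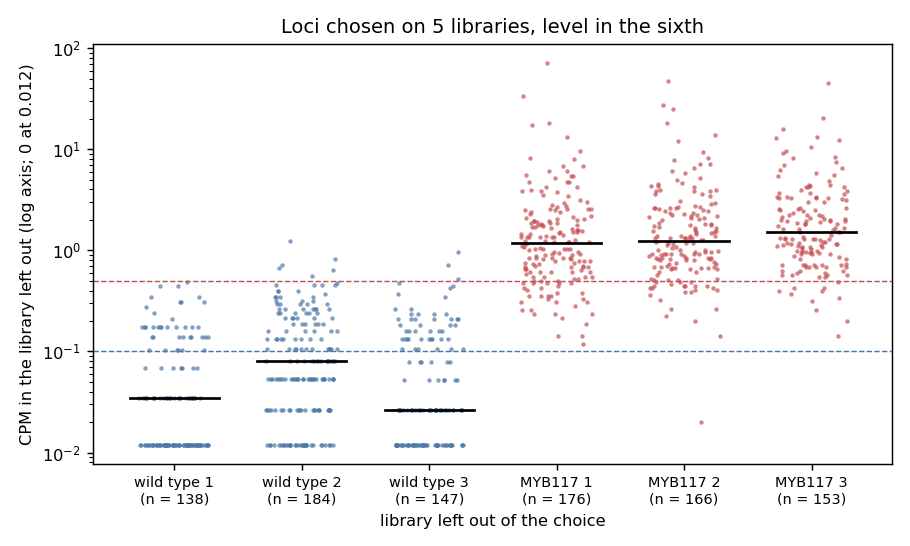
Each point is a locus chosen by the same limits on 5 libraries, drawn at its CPM in the library left out (log axis), with the median as a black bar and the limits of 0.1 CPM (blue) and 0.5 CPM (red) as dashed lines. Wild-type medians lie at 0.0345, 0.0797 and 0.0263 CPM and MYB117 medians at 1.18, 1.23 and 1.51 CPM, with 0, 6 and 3 wild-type points at 0.5 CPM or more and 1 MYB117 point, in replicate 2, below 0.1 CPM.

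The spread of the 142 loci between the transgenic plants differed from locus to locus. The coefficient of variation over the 3 MYB117 libraries had a median of 23.6%, with quartiles of 17.2% and 36.6%. Counting error alone has a median of 12.6% at these read numbers, and separate plants add their own spread to it. The highest library was at least 1.5-fold above the lowest at 82 loci, at least 2-fold at 39 and at least 3-fold at 9. Between the quartiles of the levels, 0.969 to 2.75 CPM, the median coefficient was 29.2% for 70 of the loci and 26.6% for 2892 other loci with a Potra identifier. The limit in each MYB117 library keeps loci of very uneven level out of the set, so the difference between these medians is not a comparison of like with like.

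The 9 loci with a spread of at least 3-fold did not follow a single plant. Replicate 3 was the highest at 5 of them and replicate 1 at 4. The locus at rank 17 had 1.84, 3.94 and 8.16 CPM in replicates 1, 2 and 3, with replicate 3 the highest. Another had 6.89, 4.63 and 1.96 CPM in the same replicates, with replicate 3 the lowest. The largest ratio, 6.47-fold, belonged to a locus with 3.44, 1.01 and 6.54 CPM, where replicate 2 was the lowest.

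Over the whole set, MYB117 replicate 3 was the highest library at 64 loci, replicate 1 at 43 and replicate 2 at 35. Replicate 1 was the lowest library at 71 loci, replicate 2 at 39 and replicate 3 at 32. A further 17414 loci with a Potra identifier had a MYB117 mean in the same range, with a median of 8.98 CPM against 1.53 CPM. Among these loci replicate 1 was lowest at 55.2%, against 71 of 142 in the set. Replicate 3 was highest at 40.0% of them, against 45.1%, and replicate 2 at 35.9%, against 24.6%. Between the quartiles of the levels, replicate 2 was highest at 40.2% of 2892 other loci and at 21.4% of 70 loci of the set. There replicate 3 was highest at 33.8% and 44.3%, and replicate 1 at 26.0% and 34.3%. These orders are of CPM without TMM scaling, whose factors were 0.961, 1.06 and 1.06 in MYB117 replicates 1, 2 and 3. Replicate 2 is also the deepest library. The part of scaling and of depth in this order was not tested. Across the 142 loci, log2 CPM correlated at 0.90 between replicates 2 and 3, at 0.85 between replicates 1 and 2 and at 0.81 between replicates 1 and 3 (Pearson, n = 142 loci that share the same libraries).

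**Figure D4:**
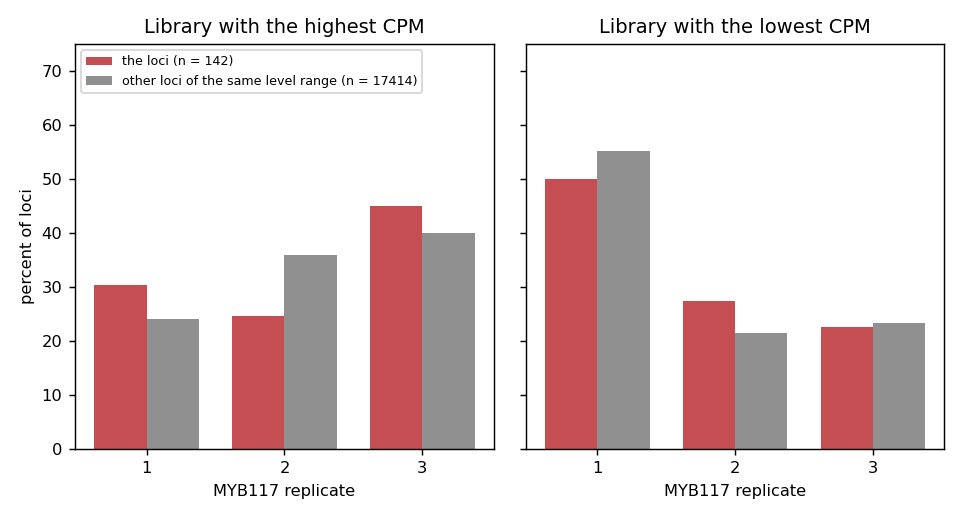
Percent of loci whose highest CPM (left) or lowest CPM (right) among the MYB117 libraries was in replicate 1, 2 or 3, for the 142 loci (red) and for 17414 other loci with a Potra identifier in the same range of MYB117 mean (grey). Replicate 1 is most often the lowest in both sets, and replicate 2 is the highest at 24.6% of the red and 35.9% of the grey loci. The median MYB117 mean is 1.53 CPM for the red and 8.98 CPM for the grey loci. CPM are without TMM scaling.

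Position gives a property that the choice did not use. An identifier holds a scaffold number and a gene number, and gene numbers below 29547 run in the order of the scaffolds without a break. The 142 loci carry 141 identifiers on 138 scaffold numbers, out of 9631 scaffold numbers in the files. No like count was made for another set of loci, so this number is a description only. In 48 of the 142 (33.8%) the identifier was the only one on its scaffold in the files. This was so for 13.6% of all tested loci with a Potra identifier, for 18.3% of 2891 tested loci between the quartiles of the levels, for 20.5% of 8796 other loci silent in wild type and for 21.5% of 2089 other loci called higher. The median number of identifiers on the scaffold was 4 for the set and 7 or 8 for each of these other sets. A gene number from 29547 upwards was carried by 21 loci (14.8%), close to the 14.7% of all loci with a Potra identifier. The share was 5.90% of the tested loci with a Potra identifier, 11.7% of the tested loci between the quartiles, 6.99% of the other loci called higher and 38.3% of the other silent loci.

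Members of the set shared a scaffold in 4 cases, each with 2 loci. In 1 case both loci carry the same identifier, at 0.684, 0.849 and 1.19 CPM and at 2.97, 4.29 and 4.81 CPM in MYB117 replicates 1, 2 and 3. In 2 cases the gene numbers are consecutive and the loci stand side by side in the files. One such pair had 1.39, 1.58 and 1.82 CPM beside 1.58, 2.16 and 2.16 CPM, and the other had 1.53, 2.65 and 2.56 CPM beside 1.44, 2.63 and 3.58 CPM. Replicate 1 was the lowest in both loci of all 4 cases, and it was the lowest library at 71 of the 142 loci. In the fourth case the gene numbers differ by 2, with 1.04, 1.25 and 1.19 CPM and 0.755, 1.07 and 1.31 CPM. Whether such a pair is 1 transcript split over 2 loci was not tested.

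Identifiers on more than 1 locus were 4 of the 141 (2.84%), against 2.32% of all Potra identifiers. Outside the set, 4 loci carry the identifier of a member. Of these, 3 had 0 reads in all 6 libraries, and the fourth had 7 reads in wild type and 140 in MYB117, at 0.0700 ± 0.0606 and 1.14 ± 0.61 CPM (SD, n = 3 each). It was called higher with a log2 fold change of 3.95 (edgeR, SE 0.92, adjusted p = 0.031). That call was lost when wild-type replicate 2, or any 1 of the MYB117 libraries, was left out, where 0 of the 4 loci were called.

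Neighbouring loci were examined for the 83 identifiers of the set that have an ordered gene number and share their scaffold with another such identifier. Their nearest identifiers on each side belong to 131 other loci, of which 99 were tested. Of these 99, 15 were called higher (15.2%) and 9 lower (9.09%), while 8.63% and 7.78% of the 22502 tested loci outside the set with an ordered number were called (edgeR, adjusted p below 0.05). The median log2 fold change of the 99 loci was 0.11, against -0.09. Most loci beside the set thus did not pass the test, and the difference between these shares was not tested. The number of 15 fell to 9 without MYB117 replicate 2, where 3.71% of the other loci were called. The tested loci beside the set had a median wild-type level of 8.31 CPM, against 12.5 CPM for the other ordered loci. The shares called above are thus of sets that differ in level. Of the 131 loci, 27 (20.6%) were themselves below 0.1 CPM in wild type, against 18.6% of the other ordered loci.

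The 15 loci called higher beside the set are described in 2 groups, split by wild-type level after the values were seen. In 8 of them the wild-type mean was 0.126 to 0.387 CPM, just above the limit of the set, and the MYB117 mean was 1.58 to 39.4 CPM. The largest rise among them went from 0.449, 0.0531 and 0.0263 CPM in wild type to 26.6, 31.2 and 60.6 CPM in MYB117 (edgeR, log2 fold change 7.78, SE 0.90, adjusted p = 0.0040). It stood beside a locus of the set with a mean of only 0.795 CPM, among the weakest of the set, so neighbours could differ widely in level. In the other 7 the wild-type mean was 0.957 to 17.8 CPM, and the log2 fold change was 0.84 to 2.94. The most abundant of these went from 12.4, 17.1 and 18.0 CPM to 53.6, 58.2 and 64.7 CPM (edgeR, log2 fold change 1.81, SE 0.15, adjusted p = 0.0013), beside a locus of the set at 1.01 CPM.

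**Figure D5:**
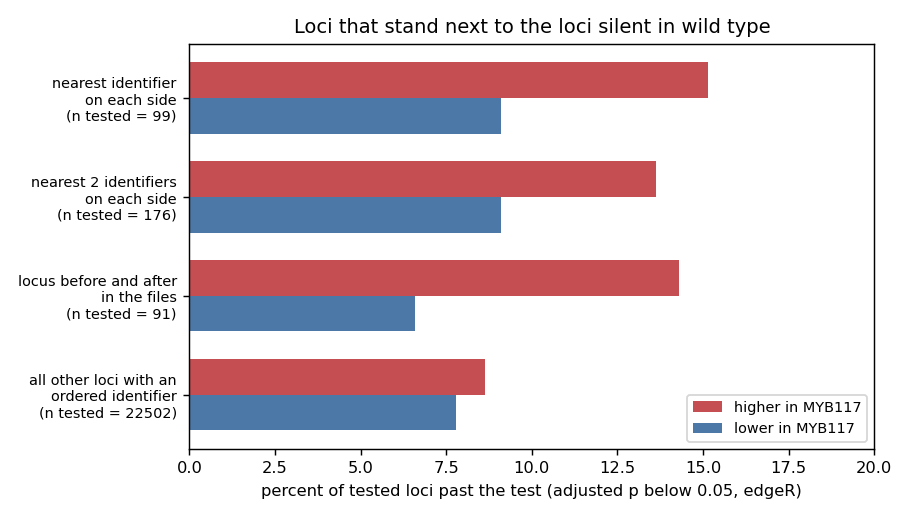
Percent of tested loci called higher (red) or lower (blue) in MYB117, for loci that stand next to the set by 3 definitions and for all other loci with an ordered identifier. Higher calls make up 15.2%, 13.6% and 14.3% of the neighbours under the 3 definitions and 8.63% of the other loci, and lower calls make up 9.09%, 9.09% and 6.59% against 7.78%.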

How the data were processed

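Leaf messenger RNA of 3 wild-type and 3 MYB117 poplars was sequenced. The deposited values are raw read counts per locus, 1 library per file, made by the authors with HISAT2 2.1.0, Cufflinks and HTSeq 0.6.1, per the submitters' processing notes. The genome build, annotation and strand setting are not stated in the sources used here. The last 5 rows, reads given to no locus, held 27.0% to 29.6% of a library and were left out. CPM were computed from the counts without TMM scaling. Calls are from edgeR 4.0.16 (R 4.3.3), quasi-likelihood F test, two-sided, TMM, a minimum count of 10 and total of 15, no covariate. The limit was an adjusted p of 0.05. A standard error is the log2 fold change divided by the square root of F. The code was tested on simulated counts. Alternatives were DESeq2 1.42.0, limma 3.58.1 (voom), RLE scaling, other filters, other limits and libraries left out. The members and lists were chosen with earlier results of these data known. The 2 printed identifiers are the most abundant locus and the most abundant without wild-type reads; other loci were singled out after their values were seen. Planned gene lists by name were not used, as no names were paired. Loci of the same level were compared by MYB117 mean. Intervals and floors cover counting error only.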

Additional observations from a re-analysis of the deposited data

Results flagged for a closer look

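Outside the loci with a gene identifier, 58 loci met the same limits, a wild-type mean below 0.1 CPM and at least 0.5 CPM in each MYB117 library. They were picked out because they carry a signal above the wild-type level in rows that the choice of the set leaves out. The fit over all loci and the read totals include these rows. All 58 are among the 2946 loci that the files label NA. Their median MYB117 mean was 1.51 CPM and the highest was 15.04 CPM. With the groups exchanged, 0 of the 2946 loci labelled NA met the limits, beside 14 of the 34267 with a Potra identifier.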

How the results depend on the processing

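The size of the set depended on its limits. It was 82 and 274 with wild-type limits of 0.05 and 0.2 CPM, 254 and 76 with MYB117 limits of 0.25 and 1 CPM, and 77 with every wild-type library below 0.1 CPM. With 1 library left out it was 138 to 184. The reverse limits gave 1, 42, 38, 3 and 6 loci in the same order of settings, 15 to 31 when any single library was dropped (31 when it was wild-type replicate 1) and 37 without both libraries numbered 1. With TMM-scaled CPM the 2 numbers were 138 and 13, and with CPM over all reads 137 and 11. Of the 142 loci, 107 to 138 were called higher with 1 library left out. Under the filter of 1 CPM in 3 libraries 76 were, since fewer loci were then tested. Of the other loci with an ordered identifier, 3.71% to 8.98% and 9.18% were called higher in these fits. RLE scaling, no count filter, limma voom and DESeq2 called 139 to 142 of the 142 loci and 15 to 20 neighbours. The share of other ordered loci called higher was 7.00% without a count filter and 13.2% with DESeq2, which called 20.2% of the neighbours. The fit without both libraries numbered 1 called 137 and 19, beside 9.37% of the other ordered loci. Neighbours called higher were 9 to 16 with 1 library left out, beside 3.71% to 8.98% of the other ordered loci. With the nearest 2 identifiers on each side they were 24 (13.6%), beside 8.63%. Of the loci outside the set with a member's identifier, 0 to 1 were called in the fits that drop a single library (1 where it was wild-type replicate 1 or 3, and 0 in the others), and the number was 0 with the minimum of 1 CPM and without both libraries numbered 1. The share of MYB117 reads in the set was 0.0305% of all reads, 0.0384% without the most abundant locus, and 0.0424% to 0.0429% with 1 library left out. Whether the numbers of the replicates pair the plants is not settled. Deviations of same-numbered libraries correlated at 0.37, 0.18 and 0.04, and those of differently numbered libraries at -0.41 to 0.39. With a replicate block 134 of the 142 loci, 14 neighbours and 0 loci with a member's identifier were called higher. The share of other ordered loci called higher was then 8.39%. The limit of 0.5 CPM, 17.6 to 24.7 reads in a MYB117 library, leaves out weaker loci, which the limit of 0.25 CPM takes in.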
